A study of Mus musculus with 2 samples.

Results

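The genes described here encode subunits and regulators of AMP-activated protein kinase (AMPK) and of the kinase complex mTORC1, 10 genes in all: Prkaa1, Prkaa2, Prkab1, Prkag1, Stk11, Mtor, Rptor, Tsc1, Ddit4 and Eif4ebp1. They were chosen by symbol, and every probe set whose annotation gives 1 of these symbols was taken. This gave 23 probe sets for the 10 genes, of 34945 probe sets for 18193 genes on the array. Liver RNA came from male wild-type C57BL/6J mice, an inbred laboratory strain, housed individually, with the diets begun at 8 weeks of age and the age labelled as 5 months. The AL mice ate ad libitum for 12 weeks. The CR mice were calorie-restricted for 12 weeks, with food cut by 20% during week 1 and by 40% for the other 11 weeks. Equal amounts of liver RNA from 3 mice per diet were pooled, with 1 Affymetrix array per pool, so that no replicate, no p-value and no spread between mice exist. Differences are given as log2 intensity, CR minus AL, and describe these 2 pools.

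AMPK is an energy sensor of the cell, built of a catalytic alpha, a scaffolding beta and a nucleotide-binding gamma subunit. It is switched on when AMP and ADP rise and when LKB1, the product of Stk11, phosphorylates the alpha subunit, and in liver it restrains fatty acid and sterol synthesis. mTORC1 joins the kinase mTOR with the adaptor raptor and drives protein synthesis when amino acids and insulin are plentiful. The TSC complex, which AMPK activates, shuts off the GTPase Rheb and thereby mTORC1. Both kinases are controlled mainly by phosphorylation and binding, which an RNA array does not measure.

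A few facts of both arrays bear on all values. Intensities are on a linear scale, with medians of 7.35 in AL and 7.42 in CR. A probe set counted as measured if at least 1 pool reached 7.38, the median over both arrays, because the table has no detection calls. The number of arrays limits the precision. In whole liver RNA, fewer cells of a type and less RNA per cell cannot be told apart. All 9 hepatocyte markers were in the measured range, and their summed intensity was 49312 in AL and 47656 in CR. Every marker of a cell type is represented here by its brightest probe set. On these, 6 hepatocyte markers were lower and 3 higher in CR, none by 2-fold, and the brightest markers make up most of the sum. Single dimmer probe sets were past 2-fold in both directions, Ttr 1451580_a_at at -1.60 and Pck1 1455209_at at 1.36. The 3 measured neutrophil markers of 4 with a probe set were all lower in CR (summed 111 in AL and 37.5 in CR, with Mpo below the limit in both pools), as were the 7 measured Kupffer cell and macrophage markers of 8 (summed 1966 and 1741). Of 3 skeletal muscle markers, Acta1 and Myh1 were below the limit in both pools and Ckm read 11.4 in AL and 14.4 in CR, a difference of 0.33. Alas2, the 1 measured erythroid marker, read 40.2 in AL and 7.43 in CR, a difference of -2.43. The 3 measured lymphocyte markers and 5 of 6 stellate cell and fibroblast markers were lower in CR. Higher in CR were 3 of 4 measured endothelial markers, 2 of 3 cholangiocyte markers and the 1 measured adipocyte marker. The part of cell mixture in the results was not tested. The control probe sets for beta-actin were far brighter at the 3' end than at the 5' end of the transcript, by 83.5 times in AL and 89.7 times in CR. The ratio of the 3' end to the middle was 11.1 in AL and 20.4 in CR for beta-actin, and 4.46 and 6.04 for Gapdh. The part of RNA quality in the results was not tested. Scaling on the 18 hybridisation control probe sets would lower every difference by 1.02, and scaling on the 4 for cre alone by 0.37. Differences are therefore relative to the typical gene, whose median was -0.02.

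None of the 10 genes reached a 2-fold difference on its brightest probe set. Of the 10, 9 were in the measured range, and their differences ran from -0.51 for Mtor to 0.44 for Ddit4, with 4 above 0, 5 below and a median of -0.02. Across the 12644 measured genes, 1.80% were at least 2-fold higher and 2.79% at least 2-fold lower in CR, and the median was -0.02 as well. No member reached 1.5-fold either, against 6.76% of measured genes higher and 9.49% lower. The interquartile range of all genes ran from -0.29 to 0.23, and 5 of the 9 members fell inside it. After scaling on the hybridisation controls 6 of the 9 would stand at least 2-fold lower and none higher, where 54.2% of all measured genes are lower and 0.261% higher. By probe set, 16 of the 23 were in the measured range. Of these 16, 1 was past 2-fold upward and none downward, against 1.99% and 2.97% of the 20316 measured probe sets.

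**Figure D1:**
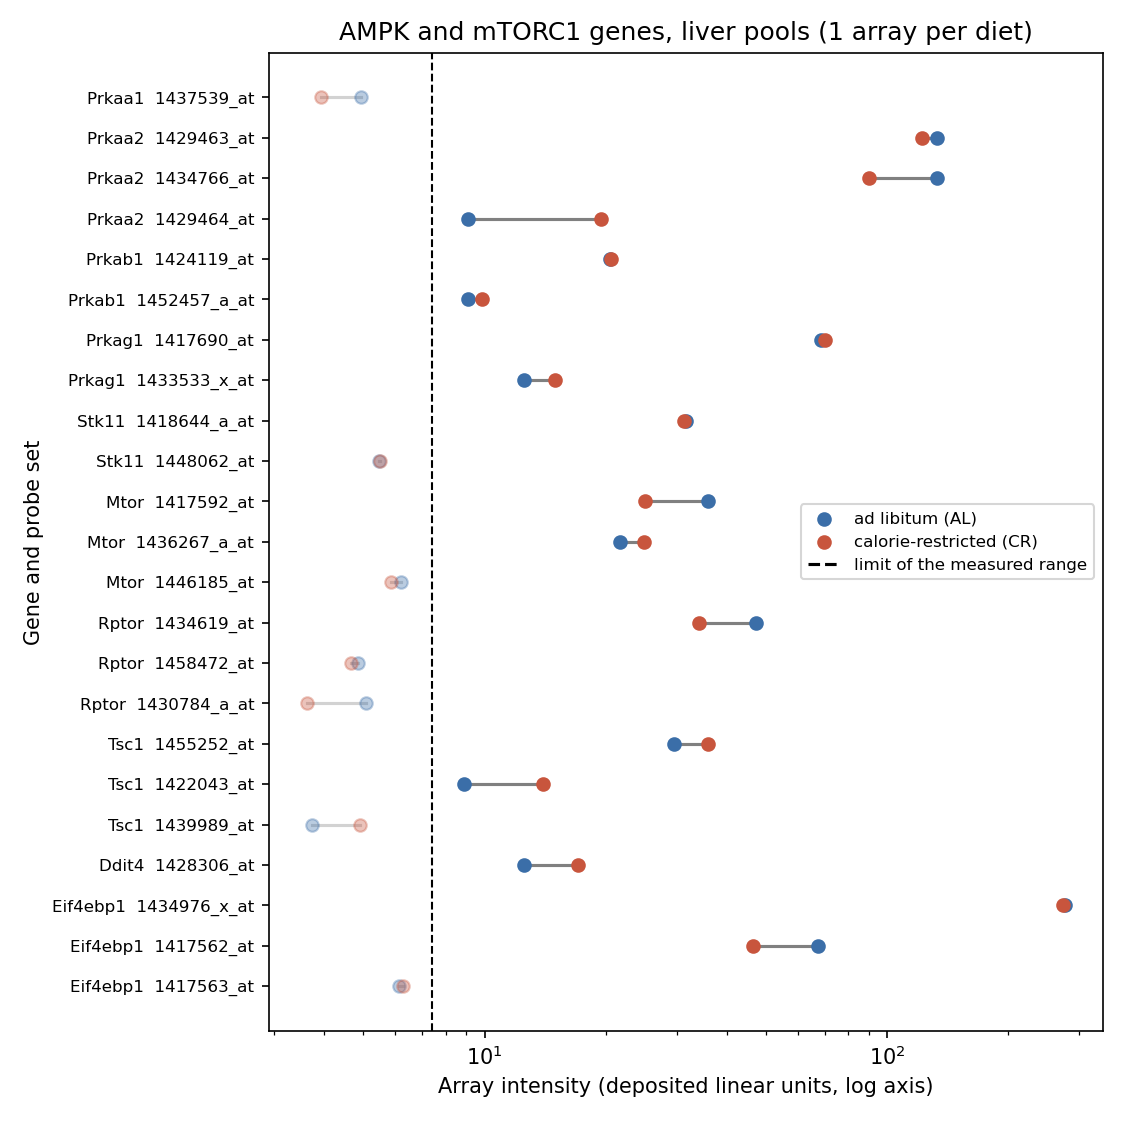
Array intensity (log axis) of all 23 probe sets of the 10 genes in the AL pool (blue) and the CR pool (red), 1 array each and thus no error bars, with the limit of 7.38 as a dashed line and probe sets below it drawn faint. The pools lie close together for most probe sets, and the widest gap is that of the Prkaa2 probe set 1429464_at, from 9.08 in AL to 19.4 in CR.

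The catalytic alpha subunits come from 2 genes. Prkaa1, which encodes alpha 1, the more widely expressed form, had a single probe set, at 4.94 in the AL pool and 3.92 in the CR pool. Both values were below the limit, so no difference was read for this gene. Prkaa2 encodes alpha 2, a form abundant in liver and muscle, and had 3 measured probe sets. The brightest, 1429463_at, had an intensity of 133 in the AL pool and 122 in the CR pool, a difference of -0.13. The almost equally bright 1434766_at had 133 in AL and 90.2 in CR, a difference of -0.56. The dim 1429464_at had 9.08 in AL and 19.4 in CR, a 2.14-fold higher intensity or 1.10 on the log2 scale. Both bright probe sets were thus lower in the CR pool and the dim one higher, and the mean of the 3 was 0.14. Of all measured probe sets, 1.48% had a positive difference at least as large as that of 1429464_at, and 10.8% a negative one at least as large as that of 1434766_at. The annotation gives the same source sequence for 1429463_at and 1429464_at, although their differences have opposite signs. Their positions along the transcript are not given in the sources used here.

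On their brightest probe sets, the regulatory subunits among the members and the kinase gene Stk11 were nearly the same in both pools. Prkab1 encodes beta 1, the scaffold that joins alpha and gamma and binds glycogen. Its brighter probe set read 20.5 in AL and 20.6 in CR, and the dimmer one 9.11 and 9.86, differences of 0.01 and 0.11. Prkag1 encodes gamma 1, the subunit that binds AMP, ADP and ATP. Its brighter probe set had 68.6 in AL and 70.3 in CR, a difference of 0.03, and its dimmer one, 1433533_x_at, 12.5 and 15.0, a difference of 0.26. Stk11 encodes LKB1, the main kinase upstream of AMPK. Its measured probe set had 31.7 in AL and 31.3 in CR, a difference of -0.02, and the other was below the limit in both pools, at 5.46 and 5.50. The difference of Stk11 was at least matched in size by 96.1% of measured probe sets, that of the brighter Prkag1 probe set by 92.9% and that of the brighter Prkab1 probe set by 97.4%. The sign of such small values depends on scaling: Prkab1 and Prkag1 stand below 0 on either set of hybridisation controls, Prkab1 also after median centring, and Stk11 above 0, at 0.02, after a loess trend was removed.

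The kinase and adaptor of mTORC1 were lower in the CR pool on their brightest probe sets, by less than 1.5-fold. Mtor, the kinase itself, read 35.8 in AL and 25.1 in CR on 1417592_at, a difference of -0.51. A second measured probe set of Mtor, 1436267_a_at, had 21.7 in AL and 24.8 in CR, a difference of 0.20, and the remaining one was below the limit. The probe sets of Mtor thus pointed both ways. Rptor encodes raptor, the adaptor that brings substrates to mTOR. It had 1 measured probe set, with 47.3 in AL and 34.1 in CR, a difference of -0.47, while its other 2 probe sets stayed below the limit, between 3.61 and 5.07. Negative differences at least that large were found in 12.4% of measured probe sets for the Mtor value and in 14.3% for the Rptor value.

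Of the negative regulators among the members, Tsc1 and Ddit4 stood above 0 on their brightest probe sets and Eif4ebp1, a repressor that mTORC1 itself inhibits, close to 0. Tsc1 encodes hamartin, which stabilises the TSC complex. Its brightest probe set had 29.6 in AL and 35.9 in CR, a difference of 0.28, and the dimmer 1422043_at 8.91 and 14.0, a difference of 0.65. A positive difference as large as 0.65 was found in 5.69% of measured probe sets. The third Tsc1 probe set lay below the limit, at 3.73 in AL and 4.90 in CR. Tsc1 would stand below 0, at -0.09, after scaling on cre and at -0.74 on all hybridisation controls. Eif4ebp1 encodes 4E-BP1, a repressor of cap-dependent translation that mTORC1 phosphorylates and so releases from the cap-binding factor eIF4E. The brightest Eif4ebp1 probe set, 1434976_x_at, had 276 in AL and 273 in CR, a difference of -0.02, or 0.01 once a loess trend was removed. The next, 1417562_at, had 67.3 in AL and 46.5 in CR, a difference of -0.53, and the third, at 6.14 and 6.25, was below the limit. The name ending _x_at marks probe sets in which some probes may also match other transcripts. Without such probe sets Eif4ebp1 would be represented by the value of -0.53.

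Ddit4 encodes REDD1, a stress-induced protein that restrains mTORC1 through the TSC complex. It had the largest positive difference among the brightest probe sets of the members. Its only probe set read 12.5 in AL and 17.0 in CR, 1.36-fold higher or 0.44 on the log2 scale, and 12.1% of measured probe sets had a positive difference at least as large. It would stand at 0.07 after scaling on cre and at -0.57 on all hybridisation controls. Known inducers of Ddit4 are hypoxia through HIF, glucocorticoids and the stress factor ATF4, and the RefSeq window of its promoter is shown here because the target genes of these inducers were measured beside it. The window is the 250 bases before the start of the gene, chr10:59951771-59952020, minus strand, GRCm38.p6. Capitals mark matches to the HIF core ACGTG and to the CCAAT box, on either strand.
Ddit4: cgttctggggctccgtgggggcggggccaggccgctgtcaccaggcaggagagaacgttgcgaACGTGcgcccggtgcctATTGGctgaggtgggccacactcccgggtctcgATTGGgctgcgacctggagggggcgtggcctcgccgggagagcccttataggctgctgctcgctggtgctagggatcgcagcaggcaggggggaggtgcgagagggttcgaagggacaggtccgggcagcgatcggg
It held ACGTG once, at position -187 counted from the start of the gene, and CCAAT on the other strand at -170 and -137. Of 32851 such windows, 16.6% held ACGTG and 33.8% held CCAAT on either strand. A match is a string of letters and not a measured binding site. Among the 9 members with a promoter window, 3 held ACGTG (Stk11, Rptor and Ddit4). Also searched on both strands were CACGTG, an E-box that contains ACGTG (6.02% of windows), the forkhead core GTAAACA (3.17%), the TATA box TATAA (22.8%), TGATGNAA for ATF4 (3.45%) and AGAACA, a half-site of the glucocorticoid receptor (16.1%). Of these, Ddit4 held TATAA once, on the other strand at -92, and Prkag1 AGAACA once, at -178. No other match to these was found in the 9 windows.

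Genes that the same inducers are known to act on lay in both directions. Of 8 measured glucocorticoid receptor targets 6 were above 0 and 2 below, none reached 2-fold, and the median was 0.25. Fkbp5, an immunophilin, stood at 0.82 (145 in AL, 257 in CR, other probe set 0.22) and Sgk1, a kinase gene, at -0.97 (125 in AL, 63.7 in CR). Of 9 measured HIF targets 7 were above 0 and 2 at least 2-fold higher, against 1.80% of all measured genes, with a median of 0.15. The 2 were Bnip3, at 1.16 on its 1 probe set, and Pdk1, which encodes a pyruvate dehydrogenase kinase, at 1.12 with other measured probe sets down to 0.08. Neither would reach 2-fold on cre (0.78 and 0.74) or on all hybridisation controls (0.14 and 0.10), and Pdk1 would not with its probe sets averaged (0.61) or without those that may match several transcripts (0.64). Of 8 measured ATF4 targets 2 were above 0 and 6 below, none reached 2-fold, and the median was -0.21. Asns, asparagine synthetase, stood at -0.77 on its brighter probe set, with 10.3 in AL and a value below the limit in CR, at least 1.40-fold lower, and the dimmer one was at least 1.26-fold lower. Fgf21, a fasting hormone of the liver, stood at 0.83 (14.6 in AL, 25.8 in CR). On all hybridisation controls Fkbp5 and Fgf21 would lie below 0, both at -0.19.

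**Figure D2:**
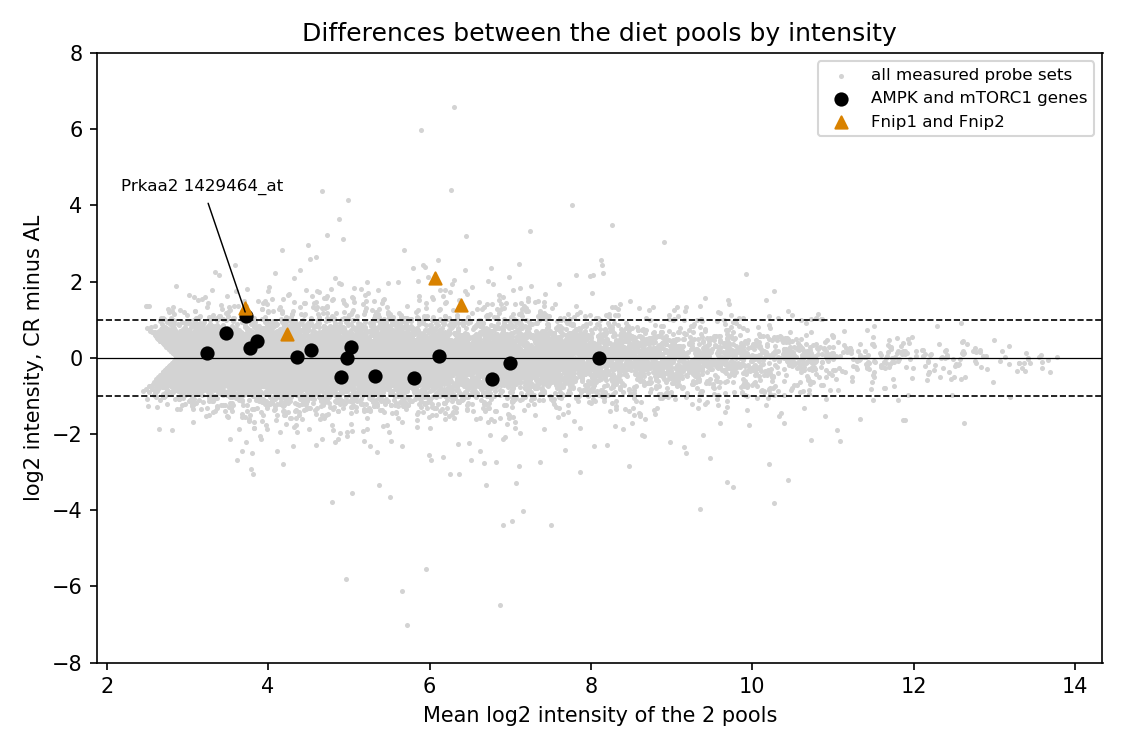
Difference CR minus AL against mean log2 intensity for the 20316 measured probe sets (grey), the 16 measured probe sets of the 10 genes (black) and those of Fnip1 and Fnip2 (orange triangles), with 2-fold marked by dashed lines. The 16 black points lie between -0.56 and 1.10, and 1 of them, Prkaa2 1429464_at, is past the upper line.

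Probe sets of a gene did not always give the same difference. They are read on the same 2 arrays, so their spread holds no error between pools, mice or hybridisations and stands for no replicate, and it can include differences between transcripts. Among the 10 genes, 6 had at least 2 measured probe sets. The SD of the differences over the probe sets of a gene was 0.86 for Prkaa2, 0.50 for Mtor, 0.37 for Eif4ebp1, 0.26 for Tsc1, 0.16 for Prkag1 and 0.07 for Prkab1. The median SD over 4924 genes was 0.29. An SD as large as that of Prkaa2 was found in 3.31% of these genes, and one as large as that of Mtor in 20.3%. For Prkaa2 and Mtor the probe sets had both signs, which was the case in 52.7% of all such genes. For Prkab1, Prkag1 and Tsc1 all measured probe sets were higher in CR, and for Eif4ebp1 both were lower.

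**Figure D3:**
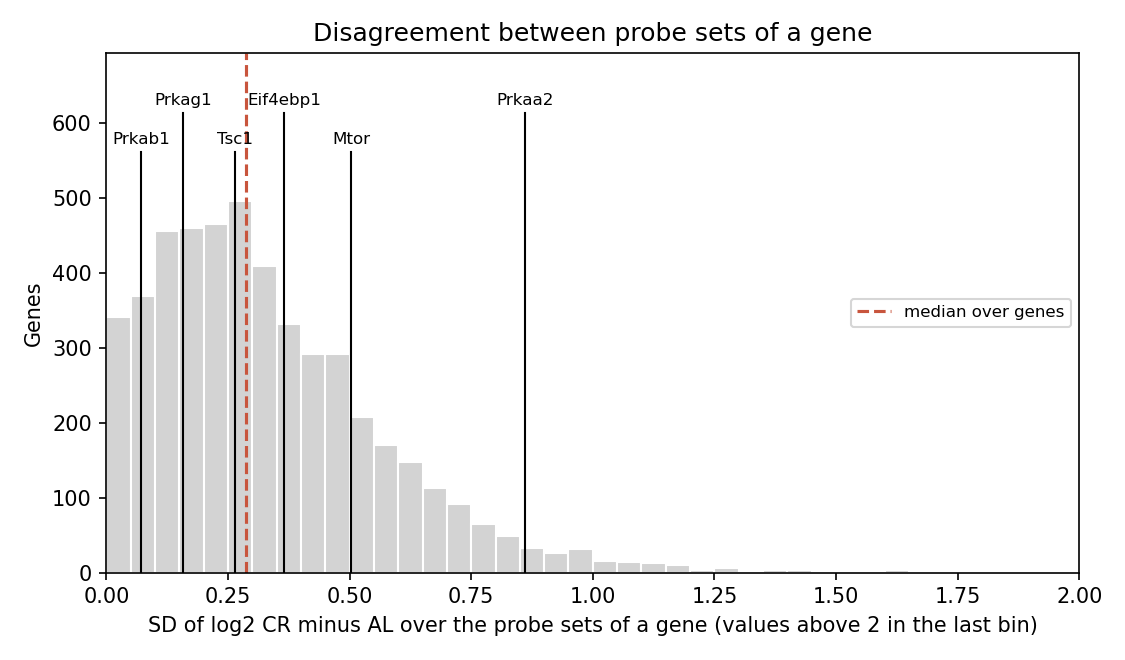
Number of genes by the SD of log2 CR minus AL over the measured probe sets of a gene, for 4924 genes (grey bars), with the median of 0.29 dashed and 6 AMPK and mTORC1 genes marked by lines. Prkaa2 lies at 0.86, to the right of most genes, and Prkab1 at 0.07, near the left edge.

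The other genes of the pathway were taken from lists by role. Of 93 genes with a probe set, 88 were measured, 55 above 0 and 32 below, with a median of 0.11, while 47.4% of all measured genes were above 0. At least 2-fold higher were 3 of the 88, and 1 was 2-fold lower, near the shares of 1.80% and 2.79% over all measured genes. The split would be 2 higher and 8 lower on cre, where 0.759% of all genes are higher and 8.15% lower. On all hybridisation controls it would be 1 higher and 34 lower, where 0.261% of all genes are higher and 54.2% lower. Among the other AMPK subunit genes, Prkag2, encoding gamma 2, stood at 0.69 (13.5 in AL, 21.9 in CR). That probe set may match several transcripts, and the other Prkag2 probe sets were below the limit. Prkab2, encoding beta 2, stood at -0.07, and Prkag3 was below the limit. None of the 6 measured LKB1 partners and other AMPK kinases reached 2-fold. Stradb, a pseudokinase that activates LKB1, had the largest difference of those, -0.66 (83.1 in AL, 52.6 in CR), while another probe set had 8.49 in CR and a value below the limit in AL, at least 1.15-fold higher in CR. Map3k7, encoding the kinase TAK1, followed at 0.25, with its other measured probe sets down to -0.40.

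Kinases related to AMPK and substrates of AMPK were mostly within 2-fold. Among 11 measured AMPK-related kinases, 8 were above 0 and the median was 0.25. Snrk, a kinase of this family that LKB1 activates, stood at 0.91 on its brighter probe set (152 in AL, 285 in CR) and at 1.12 on the other (72.1 and 156). The dimmer Snrk probe set was thus past 2-fold, and the brighter one would stand at 0.54 on cre and -0.10 on all hybridisation controls. Mark4 stood at -0.67 on a probe set that may match several transcripts. Its other measured probe set, which would represent Mark4 without such probe sets, had the same value in both pools. Of 13 measured AMPK substrates 8 were above 0, and 1, Acacb, was at least 2-fold higher, with a median of 0.20. Acacb encodes the acetyl-CoA carboxylase that controls fatty acid entry into mitochondria, and had 61.8 in AL and 129 in CR, a difference of 1.06. It would not reach 2-fold on cre, at 0.69, on all hybridisation controls, at 0.05, or with its probe sets averaged, at 0.81. Its dimmer probe set had 8.50 in CR and a value below the limit in AL, at least 1.15-fold higher in CR. Without probe sets that may match several transcripts, 2 substrates would be at least 2-fold higher, Acacb and Ppargc1a.

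On brightest probe sets, the largest differences of the pathway were those of Fnip1 and Fnip2. Both encode partners of folliculin, which binds AMPK and acts at the lysosome on the Rag GTPases that recruit mTORC1. Fnip2 read 32.3 in AL and 138 in CR on its only probe set, 4.28-fold higher or 2.10 on the log2 scale. A positive difference at least as large was found in 0.202% of measured probe sets. The brightest probe set of Fnip1 had 51.7 in AL and 136 in CR, a difference of 1.40, and the other 2 had 15.2 and 23.3, and 8.34 and 20.6, differences of 0.61 and 1.30. All 4 probe sets of these genes were thus higher in the CR pool. Fnip2 kept 2-fold, at 1.08, on all hybridisation controls, and Fnip1 stood at 0.38 there and at 1.02 on cre. The folliculin gene Flcn stood at 0.31 on its brightest probe set. Of the 12 measured genes of this list, 10 were above 0 and 2 below, with a median of 0.18. The Rag GTPase gene Rraga stood at -0.89 (31.1 in AL, 16.8 in CR). On their brightest probe sets the Ragulator genes, whose products anchor the Rags at the lysosome, ran from 0.01 for Lamtor4 to 0.25 for Lamtor5. Other measured probe sets of these genes were lower in CR, with -0.37 and -0.62 for Lamtor1, -0.49 for Lamtor5 and -0.12 for Lamtor2.

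The promoter windows of Fnip1 and Fnip2 are shown because these genes had the largest differences of the pathway on brightest probe sets, in the same direction. The Fnip1 window is chr11:54437929-54438178, plus strand, and the Fnip2 window chr3:79567680-79567929, minus strand, both the 250 bases before the start in RefSeq's GRCm38.p6. Capitals mark ACGTG, or CACGTG around it, and CCAAT, on either strand.
Fnip1: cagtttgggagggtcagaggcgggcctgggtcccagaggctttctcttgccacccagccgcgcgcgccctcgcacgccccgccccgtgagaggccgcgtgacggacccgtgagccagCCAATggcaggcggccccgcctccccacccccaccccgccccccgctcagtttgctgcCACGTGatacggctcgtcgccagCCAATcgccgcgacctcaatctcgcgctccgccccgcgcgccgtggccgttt
Fnip2: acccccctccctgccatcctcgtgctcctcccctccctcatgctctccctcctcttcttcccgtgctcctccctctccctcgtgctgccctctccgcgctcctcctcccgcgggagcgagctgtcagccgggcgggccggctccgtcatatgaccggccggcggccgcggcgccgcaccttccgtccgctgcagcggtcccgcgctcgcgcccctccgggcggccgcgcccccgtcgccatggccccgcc
Fnip1 held CACGTG once, at position -75, and CCAAT at -133 and -52. CACGTG is an E-box read by the lysosomal factors TFEB and TFE3, among others. None of the 7 motifs was found in the Fnip2 window, which says only that these letters are not there. The genes of both factors were measured: Tfeb had the same intensity, 23.3, in AL and CR, and Tfe3 stood at 0.41.

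**Figure D4:**
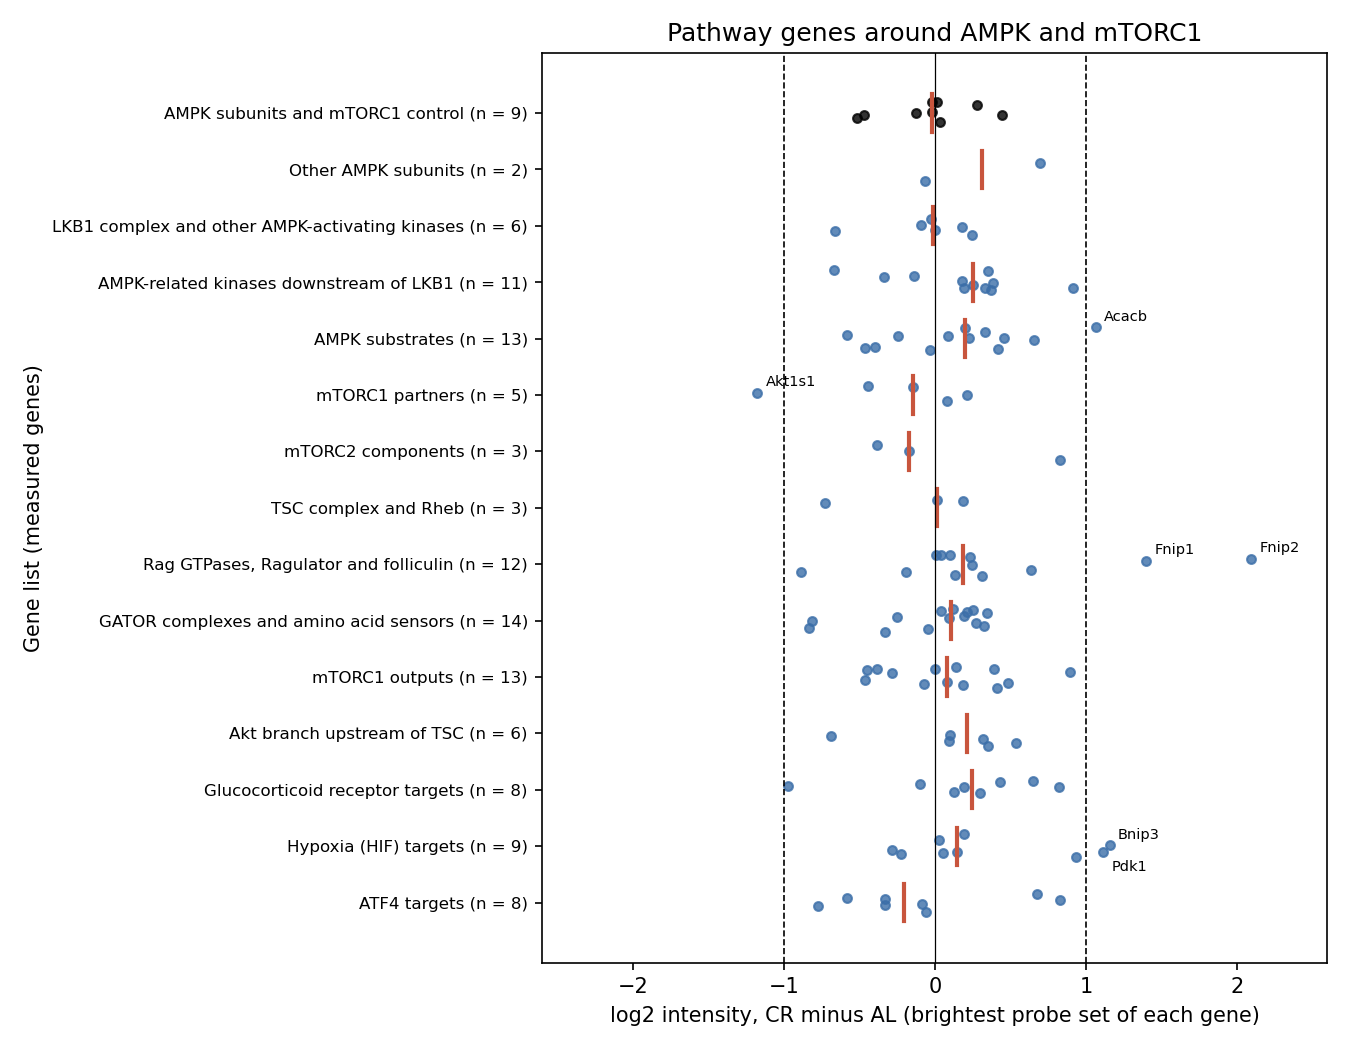
Difference CR minus AL of the brightest probe set of each measured gene (points) by list, with the list median as a red bar, 2-fold as dashed lines and genes past 2-fold named. The 9 measured AMPK and mTORC1 genes at the top lie between -0.51 and 0.44, while Fnip1 and Fnip2 lie at 1.40 and 2.10 and Akt1s1 at -1.18; on all hybridisation controls every point would lie 1.02 lower.

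Partners and outputs of mTORC1 held 1 gene past 2-fold. Akt1s1, encoding PRAS40, an inhibitor bound to raptor, had 53.5 in AL and 23.7 in CR on its brightest probe set, a difference of -1.18. Its dimmer measured probe set had 9.14 and 13.6, a difference of 0.58, so the Akt1s1 probe sets pointed both ways. Rheb, the GTPase that activates mTORC1, had 274 in AL and 166 in CR on its only probe set, a difference of -0.73, and its relative Rhebl1 stood at 0.19. Tsc2, the partner of Tsc1, was below the limit in both pools. In mTORC2, Prr5l had a value below the limit in AL and 12.7 in CR, at least 1.72-fold higher, and Mapkap1 stood at -0.38. Of 14 measured GATOR and amino acid sensor genes 9 were above 0 and none reached 2-fold. The lowest were Nprl3 at -0.83 and Sec13 at -0.82, on 1 probe set each. Of 13 measured mTORC1 outputs none reached 2-fold on its brightest probe set, and the median was 0.08. Maf1, a repressor of RNA polymerase III, stood at 0.89 on a probe set that may match several transcripts, and at -0.28 without such probe sets. Its dimmest measured probe set had 7.43 in AL and a value below the limit in CR, at least 1.01-fold lower. On all hybridisation controls Maf1 would stand at -0.12. The translation factor gene Eif4b was higher in CR on all 3 probe sets, at 0.48, 0.69 and 0.96, and would lie below 0 on all hybridisation controls on each of them. In the Akt branch Pik3r1, a regulatory subunit of PI3 kinase, stood at -0.69, with probe sets from -0.77 to 0.14, and Ddit4l, a relative of Ddit4, at 0.54.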

How the data were processed

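Equal RNA amounts of 3 mice per diet were pooled, and 6 ug of total RNA was labelled for 1 array per pool, per the labels' protocols. The deposited table of 45101 probe sets holds intensity values from RMA, as the submitters' processing notes name it. RMA corrects background, normalizes the arrays to each other and summarises probes, which hides any shift common to most genes. The deposited values are linear; the RMA version, later scaling and genome build are not given in the sources used here.

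Probe sets were named by the platform annotation where it gives 1 symbol; 932 had several and 9160 none, besides 64 controls. All 10 member symbols matched the gene table by Entrez ID. The probe set with the highest mean log2 intensity stood for its gene, and the gene counted as measured if that probe set reached 7.38 in either pool. Thresholds of 2-fold and 1.5-fold are rules of size, not tests. Named are all members and, of each list, the genes past 2-fold or, where none was, the 2 of largest difference. Prkag3, Flcn, Rraga, the Lamtor genes, Tfeb, Tfe3, Tsc2, Zbtb16 and those of the closing section were named after their values were seen. So were the single probe sets of the markers Ttr and Pck1. Members and lists were chosen with earlier results of these data known. Alternatives were another probe set rule, other intensity limits, 4 other scalings and the 1.5-fold threshold. The steps were tested on simulated data, with large differences planted only in genes well above the limit. Recovery of small differences and of dim genes was not covered. Promoter windows came from RefSeq (GRCm38.p6), with 9 of 10 members matched. Software was Python 3.11.15 with matplotlib 3.10.9, numpy 2.4.6, statsmodels 0.14.6 and pandas 2.3.3.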

Additional observations from a re-analysis of the deposited data

How the results depend on the processing

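No paired analysis was possible because each diet had 1 pool on 1 array, and for the same reason no replicate could be left out. The members' counts of 0 at least 2-fold higher and 0 lower held under the other probe set rules, intensity limits, median centring, loess, the cre controls and 1.5-fold. Scaling on all hybridisation controls gave 6 members lower and a member median of -1.03, and on cre a median of -0.39. For the pathway lists, the 1.5-fold threshold gave 9 higher and 8 lower, against 6.76% and 9.49% of all measured genes. Averaging the probe sets of a gene left 0 lower. On all hybridisation controls 1 was higher and 34 lower, against 0.261% and 54.2% of all measured genes, with a median of -0.90. On cre 8 were lower, against 8.15% of all measured genes, with a median of -0.26. A shift of every value by 1.02 or 0.37 produces these counts by construction. Prkaa2 went from -0.13 to 0.14 when its probe sets were averaged, and Akt1s1 from -1.18 to -0.30. Signals near the limit of 7.38 are not separated from background.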

Other observations

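Among the 16 measured member probe sets, the dimmer and the brighter ones differed in the sign of their differences. Measured probe sets were split at their median mean intensity of 20.7. Of the 6 member probe sets on the dimmer side, 6 were higher in CR, with a median of 0.35. These include both probe sets of Prkab1. The brighter of them, 1424119_at, lay close to the split, at 20.5 in AL and 20.6 in CR. Its difference of 0.01 would lie below 0 after median centring. Of the 10 on the brighter side, 3 were higher and 7 lower, with a median of -0.07. Across all measured probe sets 47.9% of the dimmer and 46.8% of the brighter ones were above 0. Of the probe sets of the pathway lists, 56.0% of the 84 dimmer and 53.2% of the 94 brighter were above 0. The split was made after the values were seen, and probe sets of a gene are not independent.

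Besides Snrk and Zbtb16, given above, single probe sets of other pathway genes stood past 2-fold while the brightest one did not. Deptor, an inhibitor bound to mTOR, had 738 in AL and 782 in CR on its brightest probe set, a difference of 0.08, but 60.1 and 23.2 on 1443579_s_at, a difference of -1.37. Mff, a mitochondrial fission factor that AMPK phosphorylates, stood at -1.31 on 1451572_a_at, against 0.20 on its brightest probe set. Ppargc1a, the coactivator PGC-1 alpha, stood at 1.45 on 1434099_at (25.9 in AL, 70.6 in CR), against 0.42 on its brightest probe set, 1434100_x_at. All 5 measured probe sets of Ppargc1a were higher in CR, the others at 0.32, 0.60 and 0.72. Without probe sets that may match several transcripts Ppargc1a would be represented by the value of 1.45.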
